A study of Canis lupus familiaris with 8 samples.

Results

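The glucose transporters of the SLC2A family and the pyruvate dehydrogenase kinases (PDK) were followed in left ventricular RNA of control dogs and dogs with alloxan-induced type 1 diabetes (DM dogs). The members were all probe sets of the Affymetrix Canine Genome Array that carried a single annotated symbol of the SLC2A family, or of PDK1 to PDK4. This gave 12 of the 23836 tested probe sets and 9 genes. The transporters had 8 probe sets, for SLC2A1, SLC2A2, SLC2A3, SLC2A6, SLC2A8 and SLC2A9, and the kinases had 4, for PDK1, PDK2 and PDK4. SLC2A4, the insulin-responsive transporter, carries no probe set under its symbol in the annotation used here and was not analysed here.

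Cardiac muscle takes up glucose through SLC2A proteins, which let the sugar pass down its gradient. SLC2A1 serves basal uptake and SLC2A4 moves to the cell surface in response to insulin. Pyruvate made from glucose enters the citrate cycle through the pyruvate dehydrogenase complex in the mitochondria. The pyruvate dehydrogenase kinases phosphorylate this complex and switch it off, and PDK4 is known as the form raised by fasting, fatty acids and lack of insulin.

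All 8 dogs were male mongrels of 23 to 27 kg per the labels, and no age is given in the sources used here. All had been instrumented surgically for hemodynamic recordings. The 4 DM dogs (0292, 0294, 1087 and 1111) had received 40 to 60 mg/kg alloxan, which destroys insulin-producing beta cells, with a second injection in some dogs, and were studied 4 weeks later. The 4 control dogs (D5, D6, D7 and D8) had received no alloxan. Each dog gave 1 array of unsorted ventricle.

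Values are given as log2 of the quantile-normalized signal plus 16, and differences as DM minus control on that scale, so that 1 unit is a 2-fold change. Each group value is a mean ± SD of 4 dogs. With 8 arrays in all, precision is limited by their number.

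The arrays differed in ways that were not tested as a part of any result. The hybridization controls, 18 probe sets for transcripts added to every sample in fixed amounts, averaged 13.88 ± 1.27 log2 of deposited signal in control dogs. In DM dogs they averaged 16.32 ± 1.05, a difference with p = 0.0571 in a two-sided exact permutation test. D8 had 15.77, within the range of the DM dogs (15.17 to 17.72). The actin 3′ signal, which exceeds the 5′ signal more where RNA is degraded, did so by 1.35 to 3.04 log2 in D5, D6 and D7, by 7.79 in D8 and by 3.59 to 7.71 in DM dogs. The same measure of GAPDH went the other way, at 3.60 ± 1.75 in control dogs (6.08 in D8) and 1.92 ± 1.46 in DM dogs. The mean correlation of an array with the others of its group was 0.776 to 0.865 in control dogs, lowest in D8. In DM dogs it was 0.549 to 0.656, lowest in 0292. The values of a group share their pairs of arrays, so no p is given for this measure. Of the 12 cardiomyocyte markers listed, 9 were measured, each by its brightest probe set, and all 9 had lower means in DM dogs. With limma 0 passed an adjusted p of 0.05, and 7 were lower at an unadjusted p under 0.05, against 8.97% of all tested probe sets. Some differences were smaller as the mean of all probe sets of the gene, with TTN at -0.13 against -2.97 and TNNI3 at -2.33 against -5.62. The mean level of the 9 markers was 13.17 to 15.36 in control dogs, lowest in D8, and 10.89 to 12.68 in DM dogs. Transcripts of heart muscle were thus present on every array. Fewer muscle cells and less RNA per cell cannot be told apart in such tissue. A batch of arrays and diabetes also cannot be told apart.

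The mean of PDK4 was 4.24-fold higher and that of SLC2A1 4.98-fold lower in DM dogs, and the 95% intervals of the other 10 probe sets included 0. With limma, 0 of the 12 member probe sets passed an adjusted p of 0.05, a threshold that 0.0168% of all tested probe sets passed. At an unadjusted p under 0.05 there were 2 (PDK4 higher, SLC2A1 lower), against 16.8% of all tested probe sets. The study's methods called a probe set at 2-fold or more with a nominal P of 0.01 or less. By these criteria, on the values used here, PDK4 was the 1 member called, against 4.92% of all tested probe sets (2.44% higher and 2.48% lower). No member passed an adjusted p of 0.10 in limma or of 0.05 in the methods' t-test, where 1.93% and 0.0881% of all tested probe sets did. The members had a difference above 0 in 4 of 12 probe sets, against 51.9% of all, and a difference of 2-fold or more in 4 of 12, against 37.5%. Groups that did not overlap were seen in 1 of 12 (PDK4, higher), against 10.8% of all (5.87% lower). The shares of members called were thus near those of the array as a whole. The median difference over all tested probe sets was 0.06.

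**Figure D1:**
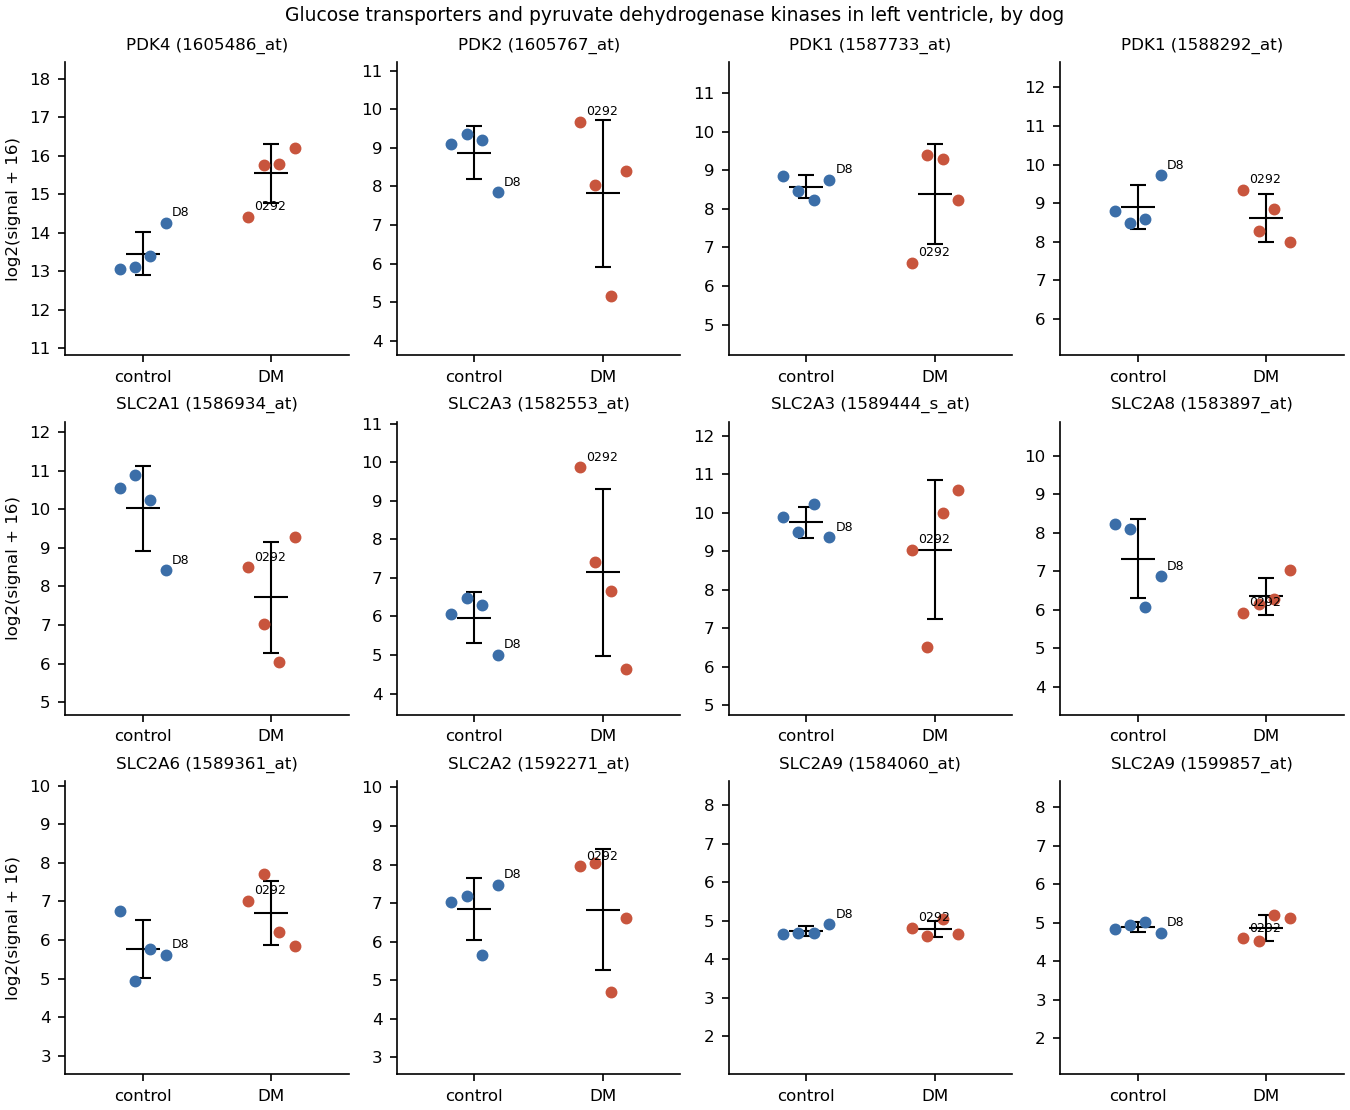
Log2(signal + 16) of the 12 probe sets in each of 4 control dogs (blue) and 4 DM dogs (red), 1 point per dog, with the mean and SD in black. Every panel spans the same log2 range, and D8 and 0292 are marked. PDK4 is the panel in which all DM dogs (14.42 to 16.20) lie above all control dogs (13.05 to 14.27).

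PDK4 (1605486_at) had values of 13.05, 13.11, 13.41 and 14.27 in control dogs D5, D6, D7 and D8. In DM dogs 0292, 0294, 1087 and 1111 it had 14.42, 15.76, 15.79 and 16.20. Every DM dog was thus above every control dog, as in 4.93% of all tested probe sets, but the gap between D8 and 0292 was narrow. Control dogs averaged 13.46 ± 0.56 and DM dogs 15.54 ± 0.77, a difference of 2.08 (SE 0.62, 95% interval 0.75 to 3.41), or 4.24-fold. Its adjusted p was 0.130 in limma and 0.155 in the methods' t-test. This difference exceeded that of 97.5% of all tested probe sets.

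The rank of PDK4 within an array does not depend on how the arrays are scaled. It lay between percentile 97.8 and 99.1 of the tested probe sets in control dogs and between 99.2 and 99.9 in DM dogs. PDK4 was thus near the top of every array. The deposited signals were 8206 to 10096 in D5, D6 and D7, 25482 in D8, 14192 in 0292, and 89125 to 110672 in the other DM dogs. On this scale D8 lay above 0292, and the groups overlapped.

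Whether PDK4 is called, and whether it differed at all, depended on the arrays used and on their scaling. Without D8 and 0292, in each group the array with the lowest mean correlation with its own group, the difference was 2.33 (SE 0.45, adjusted p = 0.0361 in limma). D8 also had the highest PDK4 of the control dogs and 0292 the lowest of the DM dogs, so leaving both out widens the difference. An adjusted p of 0.05 was then passed by 3.88% of all tested probe sets, against 0.0168% with all dogs. With array weights the difference of PDK4 was 2.51 (SE 0.53, adjusted p = 0.0321), where 3.79% of all tested probe sets passed. With arrays scaled to the hybridization controls it was -0.02 (SE 0.96, adjusted p = 0.987), where the median over all tested probe sets was -1.65. Relative to that median PDK4 was still higher by 1.63, against 2.02 in the values reported here.

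**Figure D2:**
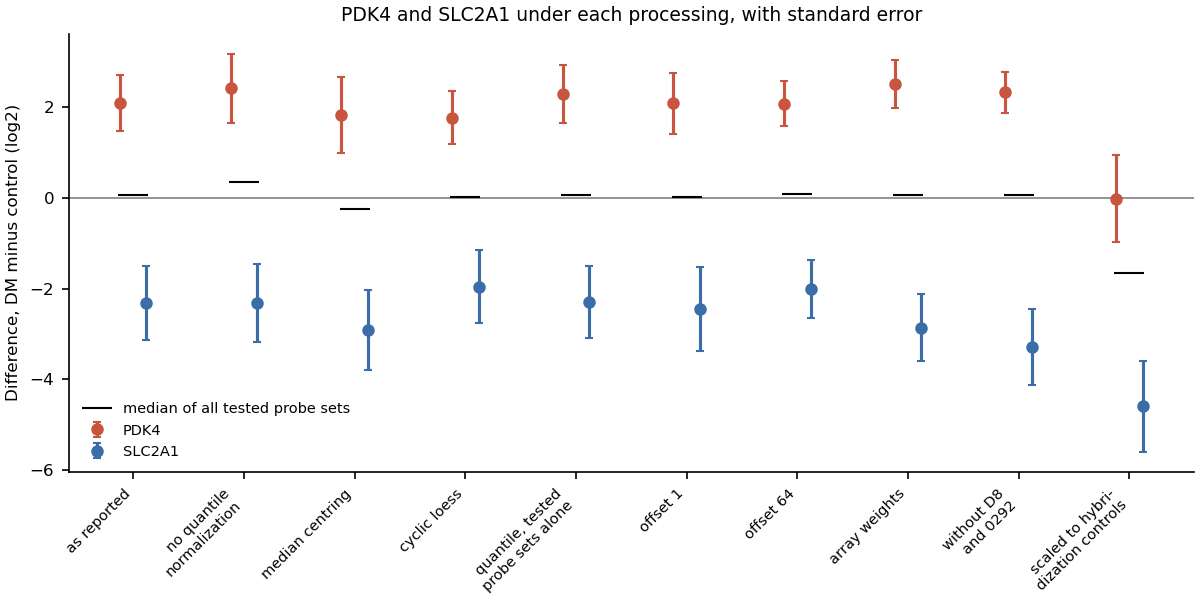
Difference of DM minus control (log2) for PDK4 (red) and SLC2A1 (blue) under each processing, with the standard error of limma, and the median over all tested probe sets (black bars). PDK4 lies 1.77 to 2.51 above 0 in all settings shown except the scaling to hybridization controls (-0.02), and SLC2A1 lies below 0 in all 10.

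PDK2 (1605767_at), the kinase form found in most tissues, had 9.09, 9.36, 9.20 and 7.86 in D5, D6, D7 and D8. It had 9.68, 8.05, 5.16 and 8.41 in 0292, 0294, 1087 and 1111. The groups overlapped, with the highest value in 0292 and the lowest in 1087. The difference was -1.05 (SE 0.86, 95% interval -2.91 to 0.81, adjusted p = 0.571 in limma). Without 1087 it was -0.18.

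PDK1, the kinase form induced by low oxygen, was read by a pair of probe sets. The first, 1587733_at, had 8.23 to 8.87 in control dogs and 6.61, 9.41, 9.30 and 8.24 in 0292, 0294, 1087 and 1111, a difference of -0.19 (SE 0.69, 95% interval -1.68 to 1.30). The second, 1588292_at, had 8.48 to 9.73 in control dogs and 7.98 to 9.35 in DM dogs, a difference of -0.28 (SE 0.60, 95% interval -1.57 to 1.00). The groups overlapped in both, and without 0292 the first had a difference of 0.43. The probe sets did not order the DM dogs alike, since 0292 was the lowest DM dog in the first and the highest in the second. Both intervals include a 2-fold change in either direction.

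Because a scale factor cancels within an array, PDK4 was also set against the other kinases dog by dog, on the deposited signals, a comparison chosen after the values were seen. PDK4 minus PDK1 (1588292_at) was 4.50 to 5.04 log2 in control dogs, D8 included, and 3.98, 8.21, 7.98 and 9.0 in 0292, 0294, 1087 and 1111. With the other PDK1 probe set (1587733_at), PDK4 minus PDK1 was 4.37 to 5.95 in control dogs and 6.67, 7.49, 7.63 and 8.75 in 0292, 0294, 1087 and 1111. PDK4 minus PDK2 was 3.55 to 4.09 in D5, D6 and D7 and 6.68 in D8, against 3.85 in 0292 and 8.40 to 12.28 in the other DM dogs. In 3 of 4 DM dogs all 3 of these differences were above those of every control dog. In 0292 this held for 1 of the 3, with PDK1 probe set 1587733_at. PDK4 minus SLC2A1 was 1.88 to 6.2 in control dogs, highest in D8, and 4.40 in 0292 and 7.53 to 11.13 in the other DM dogs. These are changes of a ratio between signals, not ratios between amounts of the kinases. The 12.28 over PDK2 and the 11.13 over SLC2A1 were both in 1087. Its deposited signals were 20.7 for PDK2 (percentile 16.2) and 45.9 for SLC2A1 (percentile 29.9), so both rest on a dim signal.

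SLC2A1 (1586934_at), which encodes the basal glucose transporter GLUT1, had 10.56, 10.90 and 10.24 in D5, D6 and D7 and 8.43 in D8. It had 8.49, 7.04, 6.05 and 9.28 in 0292, 0294, 1087 and 1111. The DM dogs were all below D5, D6 and D7, while D8 was within their range, so the groups overlapped. Control dogs averaged 10.03 ± 1.10 and DM dogs 7.71 ± 1.45, a difference of -2.32 (SE 0.81, 95% interval -4.06 to -0.58), or 4.98-fold lower. The adjusted p was 0.181 in limma and 0.297 in the methods' t-test. At a nominal P of 0.0438 in that t-test, SLC2A1 did not meet the criteria of the methods on the values used here. The study itself listed this probe set among its down-regulated genes. Its methods name normalization by RMA, a step that is not in the values used here. Only 3.02% of all tested probe sets had a difference as low or lower.

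In SLC2A1 as in the hybridization controls and the actin measure, D8 was apart from the other control dogs, and the part of these measures in the difference was not tested. Among DM dogs SLC2A1 and the actin measure rose in the same order, from 1087 (actin 3.59, SLC2A1 6.05) through 0294 and 0292 to 1111 (7.71 and 9.28). D8 went the other way, with a larger actin measure and lower SLC2A1 than the other control dogs. In D8 SLC2A1 lay at percentile 71.2, against 89.0 to 92.2 in the other control dogs and 29.9 to 81.8 in DM dogs. Without D8 the difference was -2.87 (SE 0.81, adjusted p = 0.104 in limma), and without D8 and 0292 it was -3.28 (SE 0.83, adjusted p = 0.0692). With arrays scaled to the hybridization controls it was -4.59 (adjusted p = 0.00217 in limma), -2.94 relative to the median of all tested probe sets (-1.65). That p does not test the difference relative to the median. On this scale 32.2% of all tested probe sets passed the adjusted p threshold, 7669 lower and 3 higher, so the p is not particular to SLC2A1. SLC2A1 kept its direction under all 19 alternatives.

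SLC2A1 is also carried by endothelial cells and red blood cells. Of 6 measured endothelial markers, 4 had lower and 2 higher means in DM dogs, with a median difference of -0.77 and 0 past an adjusted p of 0.05. The mean level of the list was 9.06 to 9.88 in control dogs and 8.24 to 9.74 in DM dogs. Whether SLC2A1 followed the number of endothelial cells was not tested. Of the 6 red blood cell markers listed, 0 were found under these symbols.

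**Figure D3:**
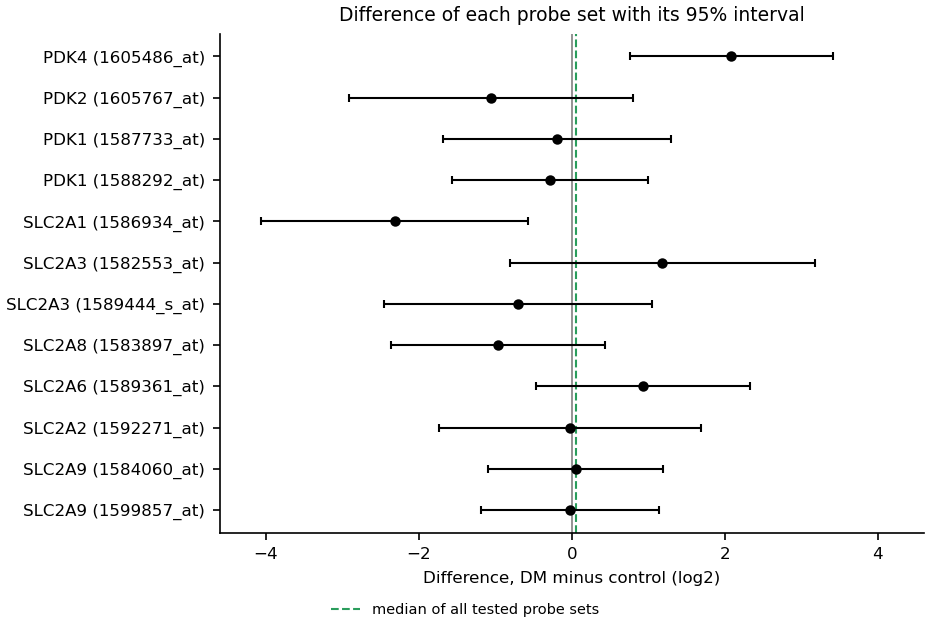
Difference of DM minus control (log2) for each of the 12 probe sets (points) with the 95% interval of limma over 4 dogs per group (bars). The intervals of PDK4 (0.75 to 3.41) and SLC2A1 (-4.06 to -0.58) lie to one side of 0, and the other 10 include 0. The dashed line is the median of all tested probe sets (0.06).

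SLC2A3, which encodes GLUT3, a transporter with a high affinity for glucose known from neurons and leukocytes, was read by probe sets that did not move alike. On 1582553_at the control dogs had 6.07, 6.48, 6.31 and 5.01, and 0292, 0294, 1087 and 1111 had 9.87, 7.42, 6.67 and 4.64. The DM dogs held both the highest and the lowest of the 8 values, and the difference was 1.18 (SE 0.92, adjusted p = 0.552 in limma). Without 0292 it was 0.25.

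On the other SLC2A3 probe set, 1589444_s_at, control dogs had 9.36 to 10.24, and 0292, 0294, 1087 and 1111 had 9.04, 6.52, 10.00 and 10.60. The suffix marks probes that more than 1 transcript can share. The difference was -0.71 (SE 0.81, adjusted p = 0.701), and without 0294 it was 0.13. The groups overlapped here as well, and 1 dog set the sign of the difference. Macrophage and monocyte markers, 9 of 9 measured, had higher means in 7 genes and lower in 2 (median 0.80). With limma 0 passed an adjusted p of 0.05, and 2 were higher at an unadjusted p under 0.05, against 7.79% of all tested probe sets. Those 2, named after their values were seen, were LYZ (lysozyme) at 3.37 (adjusted p = 0.0638) and CD68 at 1.52 (adjusted p = 0.222). Both were higher in every DM dog than in every control dog, as were 4.93% of all tested probe sets. The 2 lower genes were CSF1R at -1.21 (0.32 as the mean of its 3 probe sets) and CD14 at -1.07. The part of macrophages and monocytes in SLC2A3 was not tested. The mean level of the 9 markers was 7.79 to 9.16 in control dogs and 8.28 to 9.83 in DM dogs. Other leukocyte markers (5 of 11 measured) had a median difference of -0.24.

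SLC2A8 (1583897_at), a transporter of internal membranes, had 8.23 and 8.09 in D5 and D6 but 6.08 and 6.87 in D7 and D8. The DM dogs had 5.93 to 7.05, within the range of the latter 2 dogs or just outside it. The difference was -0.96 (SE 0.65, 95% interval -2.37 to 0.44, adjusted p = 0.483 in limma). The control dogs thus differed more among themselves (SD 1.03) than the DM dogs (SD 0.48).

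SLC2A6 (1589361_at), a transporter of lysosomes, had 4.93 to 6.75 in control dogs and 5.85 to 7.71 in DM dogs, a difference of 0.93 (SE 0.65, adjusted p = 0.497). SLC2A2 (1592271_at), which encodes the transporter of liver and beta cells, had 5.66 to 7.48 in control dogs and 4.68 to 8.04 in DM dogs, with a difference of -0.02 (SE 0.79, adjusted p = 0.993). The groups overlapped in both. The spread of SLC2A2 among DM dogs (SD 1.57) allows a change of more than 2-fold in either direction (95% interval -1.73 to 1.69).

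SLC2A9, a carrier of urate, lay near the bottom of every array. Its probe sets 1584060_at and 1599857_at had 4.59 to 5.05 and 4.53 to 5.21 over the 8 dogs, at most percentile 17.0 of the tested probe sets. The differences were 0.05 (SE 0.53) and -0.02 (SE 0.54). Without detection calls it is unknown whether they exceeded background, and no direction can be read from them.

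Among single probe sets of other named genes, the pattern most like SLC2A1 over the 8 dogs was that of COPRS (Pearson r = 0.991), FIBP (r = 0.984) and STX5 (r = 0.982), out of 10537 compared. After each group's mean was taken off, r was 0.982, 0.974 and 0.963. Most like PDK4 were RRAS2 (r = 0.978), LOC479185 (r = 0.977) and NSA2 (r = 0.974), with 0.904, 0.902 and 0.958 after the group means were taken off. The latter r pool the dogs of both groups and come from the same values by which the probe sets were picked. All points come from the same 8 arrays, whose quality differed, and the best of many correlations are high by choice, so they are given as a description.

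Around these members, 64 of 127 listed genes of glucose uptake, pyruvate use and their control were measured. With limma 0 passed an adjusted p of 0.05, and 3 had higher and 11 lower values at an unadjusted p under 0.05, against 7.79% and 8.97% of all tested probe sets. The median difference was -0.51. In the list of the pyruvate dehydrogenase complex, its phosphatase, the pyruvate carrier and lactate dehydrogenase, 8 of 9 measured genes had lower means (median -0.84), with PDHA1 counted by its brightest probe set.

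Within the pyruvate dehydrogenase complex, PDHB, the beta subunit of its first enzyme, was 9.51 to 9.97 in control dogs and 7.95 to 9.23 in DM dogs. The groups did not overlap, as in 5.87% of all tested probe sets in this direction, and the difference was -1.12 (SE 0.58, adjusted p = 0.350). PDHA1, the alpha subunit that the kinases phosphorylate, had -0.64 (SE 0.55, adjusted p = 0.593), and PDHX, which binds the complex together, had -1.34 (SE 0.75, adjusted p = 0.390). DLD, the third enzyme of the complex, had -0.84 (SE 0.67) and -0.23 without 0292, and PDP1, the phosphatase that undoes the action of the kinases, had -0.35 (SE 0.57) and -0.13 without D7. PDHX had -0.86 without 1111. The mean difference over all 4 probe sets of PDHA1 was 0.23, so no direction can be given for this gene.

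The 2 subunits of the mitochondrial pyruvate carrier, MPC1 and MPC2, had lower values in every DM dog than in every control dog. This was so in 5.87% of all tested probe sets. MPC2 was 10.92 to 12.80 in control dogs, lowest in D8, and 7.03 to 10.42 in DM dogs, a difference of -3.10 (SE 0.77, adjusted p = 0.0932). MPC1 was 13.60 to 13.82 in control dogs and 11.80 to 13.03 in DM dogs, a difference of -1.09 (SE 0.56, adjusted p = 0.347). LDHB, a subunit of lactate dehydrogenase, had 1.59 (SE 0.83, adjusted p = 0.353), with overlap between the groups.

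In the first steps of glucose use, 10 of 17 genes were measured (median -0.64). Of these, 4 were lower in every DM dog than in any control dog, against 5.87% of all tested probe sets. GPI, PFKM and UGP2 were among the 4. GPI, which makes fructose 6-phosphate, had -2.28 (SE 0.60, adjusted p = 0.101), and PFKM, the muscle phosphofructokinase, had -2.17 (SE 0.62, adjusted p = 0.123). UGP2, which serves glycogen synthesis, had -0.97 (SE 0.54) and -0.52 over its 3 probe sets, and PFKFB3, which makes an activator of phosphofructokinase, had 1.13 (SE 0.63).

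Of the insulin signalling genes that lead to transporter vesicles, 14 of 33 were measured, and 6 had higher and 8 lower means (median -0.12). PIK3R1, a regulatory subunit of phosphoinositide 3-kinase, had 9.70 to 12.32 in control dogs and 7.29 to 10.40 in DM dogs, a difference of -2.95 (SE 0.80, adjusted p = 0.110). TXNIP, which lowers glucose uptake, had -2.82 (SE 1.07, adjusted p = 0.214), and it ran from 7.73 to 14.16 among DM dogs. Without 0292, the lowest of them, the difference was -1.75. AKT2, the insulin-activated kinase upstream of transporter vesicles, had 1.95 (SE 0.74, adjusted p = 0.213). SORT1, a sorting receptor of those vesicles, had 1.81 (SE 0.74, adjusted p = 0.244) on its brightest probe set. The mean over the 2 probe sets of SORT1 was 0.46, so the 2 differ in sign. The groups overlapped in all 4 of these genes.

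Among regulators of transcription of PDK4 or SLC2A1 (16 of 36 measured), 12 had lower means, with a median of -0.43. PPARA, the fatty acid receptor that raises PDK4, was 9.93 to 11.14 in control dogs and 7.98 to 9.84 in DM dogs, a difference of -1.48 (SE 0.62, adjusted p = 0.252). The mean difference over its 4 probe sets was -0.38. PPARGC1A, its coactivator, had -1.76 (SE 0.82, adjusted p = 0.300), FOXO1, which insulin holds back, -1.43 (SE 0.82, adjusted p = 0.404), and PRKAG1, a subunit of the AMP-activated kinase, -2.10 (SE 0.89, adjusted p = 0.255). FOXO1 had -0.85 without 0292 and -0.67 as the mean of both its probe sets, and PRKAG1 had -1.40 without 1087.

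Other targets of PPAR alpha did not have the sign of PDK4 as a group. Of 14 measured, 9 had lower and 5 higher means, with a median of -0.34. FABP3, which carries fatty acids in heart muscle, had -2.94 (SE 0.63, adjusted p = 0.0727), HADHA, of fatty acid oxidation, -3.01 (SE 0.78, adjusted p = 0.10), and MLYCD, which degrades malonyl-CoA, -1.88 (SE 0.60, adjusted p = 0.149). CD36, the fatty acid uptake receptor, was 8.37 to 9.27 in control dogs and 9.56 to 10.46 in DM dogs, a difference of 1.30 (SE 0.57, adjusted p = 0.268). Like PDK4, CD36 was higher in every DM dog than in every control dog, and like PDK4 it lost this sign with arrays scaled to the hybridization controls (-1.06). BCKDK, a kinase of the same family that acts on the breakdown of branched-chain amino acids, had 9.26 to 9.44 in D5, D6 and D7, 6.47 in D8 and 4.83 to 8.86 in DM dogs, with a difference of -2.10 (SE 0.96, adjusted p = 0.292).

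**Figure D4:**
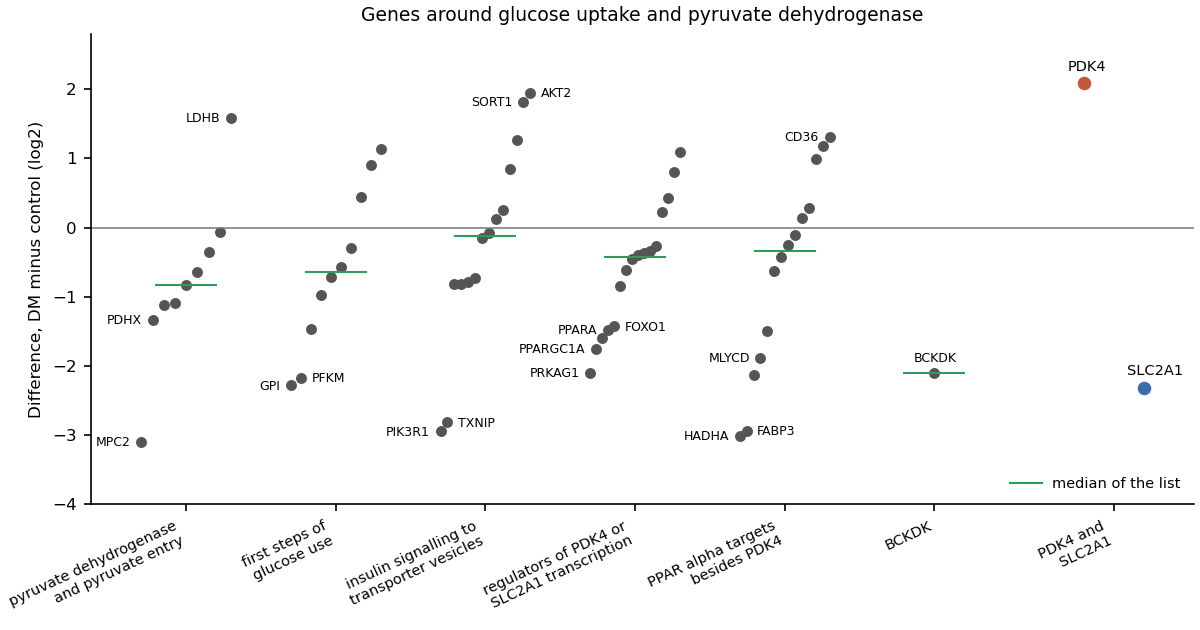
Difference of DM minus control (log2) for the 64 measured genes of 6 lists, each point 1 gene by its probe set with the highest mean level and set in order within its list, with the list's median in green and PDK4 and SLC2A1 at the right. Most points lie below 0 (45 of 64), PDK4 lies at 2.08, and SLC2A1 lies at -2.32.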

How the data were processed

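Left ventricular RNA of 4 control and 4 DM dogs was measured on 1 array each. The deposited values are signal intensities that the authors made with MAS 5.0, 1 per probe set. Each array had been scaled to a mean of 500 after trimming 2% at either end. The RMA step named in the methods is not in these values. Log2 signals of all 23913 probe sets were quantile normalized and returned to the linear scale, 16 was added and log2 was taken. The 77 control probe sets were then left out, and 23836 were compared with limma 3.58.1 in R 4.3.3, with the group alone as term, two-sided, with Benjamini-Hochberg adjustment over all of them. Intervals are 95%. Steps were tested on simulated data.

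Gene symbols are those of the platform annotation, updated through gene identifiers where these matched (10549 tested probe sets with 1 symbol, 138 with several, 13149 with none listed). A listed gene is represented by its probe set with the highest mean. The members, the lists and the tests were chosen with earlier results of these data known. All member probe sets are named, as are the 4 genes of each list with the smallest p, the measured subunits of the complex and the 3 patterns most alike. The differences between members within an array were chosen after their values were seen. Alternatives were other scalings and offsets, a filter on dim probe sets, the methods' t-test, array weights and leaving out dogs. Figures were drawn with matplotlib 3.10.9.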

Additional observations from a re-analysis of the deposited data

Results flagged for a closer look

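Within groups of 4 dogs, 30 sets of values were searched for a dog far from the others, and 2 were found, where chance gives about 1 in 20. Both were control dog D8. Its hybridization controls were 15.77 log2 of deposited signal, against 13.09 to 13.36 in the other control dogs. Its value for SLC2A9 (1584060_at) was 4.91 log2, against 4.65 to 4.69, near the bottom of the array.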

How the results depend on the processing

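SLC2A1 was lower in DM dogs under all 19 alternatives (-4.59 to -1.78) and PDK4 higher under 18 of 19, 1.87 to 2.30 where 1 dog was left out. With the hybridization controls as the scale (median of all tested probe sets -1.65), PDK4 was -0.024, SLC2A1 -4.59, SLC2A3 (1582553_at) -0.84 and SLC2A6 -0.67. SLC2A9 (1584060_at) was -0.57, PFKFB3 -1.38, SORT1 -0.24 and CD36 -1.06. On this scale 6 member probe sets and 35 pathway genes passed an adjusted p of 0.05, against 32.2% of all tested probe sets. Of the latter, 7669 were lower and 3 higher. The 1 member that met the criteria of the methods on this scale was PDK1, not PDK4, against 10.9% of all tested probe sets. Without quantile normalization SLC2A2 was 0.47 and SLC2A9 (1599857_at) 0.31. There 0 members met the criteria of the methods, against 4.98% of all tested probe sets. With median centring SLC2A9 (1584060_at) was -0.15, and 0 members met those criteria, against 4.07% of all tested probe sets. Then 1 pathway gene (MPC2) passed the adjusted p, against 0.994% of all tested probe sets. With cyclic loess the PDK1 probe sets were 0.15 and 0.25, SLC2A2 0.041 and SLC2A9 (1584060_at) -0.37. With an offset of 64 SLC2A2 was 0.087 and 5 pathway genes passed, against 1.85% of all tested probe sets. With array weights PDK4 was 2.51 and the 1 member that passed, and 5 pathway genes passed, against 3.79% of all tested probe sets. PDK1 (1587733_at) was then 0.11 and SLC2A9 (1599857_at) 0.025. Without D8 and 0292 PDK4 was 2.33 and the 1 member that passed, and 4 pathway genes passed, against 3.88% of all tested probe sets. PDK1 (1587733_at) was then 0.51, SLC2A3 (1582553_at) -0.076 and SLC2A9 (1599857_at) 0.014. As the mean of its probe sets PDHA1 was 0.23. Where 1 dog at a time was left out, PDK1 (1587733_at) ran from -0.52 to 0.43, SLC2A2 from -0.42 to 0.70, SLC2A3 (1589444_s_at) from -1.21 to 0.13, SLC2A9 from -0.040 to 0.11 (1584060_at) and -0.14 to 0.087 (1599857_at). The members that met the criteria of the methods then numbered 0 to 1. The member was PDK4, kept only without D8 (6.17% of all tested probe sets met them) or without 0292 (5.23%). The pathway genes past the adjusted p then numbered 0 to 4, with 4 without 1111, against 1.77% of all tested probe sets. The cause of these changes was not tested. The filter on dim probe sets left no value for SLC2A9. Quantile normalization of the tested probe sets alone was added after the data were seen.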
